A study of Mus musculus with 8 samples.

Results

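The 10 genes described here act at the G1 stage of the cell cycle, and their RNA was measured in embryonic mouse cerebral cortex with and without the gene Taf8. They are the D-type cyclin genes Ccnd1, Ccnd2 and Ccnd3, the kinase genes Cdk4 and Cdk6, the inhibitor genes Cdkn1b, Cdkn2c and Cdkn2d, and the pocket protein genes Rb1 and Rbl1. They were chosen by symbol, and all 10 were found once among the 27179 genes of the count table. Polyadenylated RNA was sequenced from 4 Taf8-deleted embryos, labelled Taf8 -/lox, and 4 wild-type embryos, labelled Taf8 +/+, with 1 library per embryo. Taf8 codes for a protein of TFIID, a general transcription factor that docks at the start sites of genes transcribed by RNA polymerase II. The deleted embryos thus carried a null and a lox allele, while the sources used here give neither the embryonic day nor the Cre driver and the cells it acts in.

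In G1, D-type cyclins bind CDK4 or CDK6, and the active kinases phosphorylate the retinoblastoma protein and its relative p107 (the product of Rbl1), which releases E2F transcription factors to switch on genes for DNA replication. INK4 proteins such as p18 (Cdkn2c) and p19 (Cdkn2d) bind CDK4 and CDK6 and block them, while the Cip/Kip protein p27 (Cdkn1b) binds cyclin-CDK complexes. In the embryonic cortex of the mouse, the length of G1 in progenitors is tied to the choice between further division and neuron production, and inhibitors of both families help to keep newborn neurons out of the cycle.

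Libraries held 26312505 to 52777170 counts in genes in Taf8-deleted cortex and 30601897 to 65523487 in wild-type cortex. Levels are in CPM (counts scaled to the library's size), and means are given ± SD with n = 4 embryos per group. Taf8 itself was at 0.643 ± 0.149 CPM in Taf8-deleted cortex and 34.8 ± 2.75 CPM in wild-type cortex, and the groups did not overlap. Markers of cortical cells were abundant in every library, with summed levels of 3460 to 3777 CPM in Taf8-deleted cortex and 2804 to 3041 CPM in wild-type cortex for radial glia. Wild-type replicate 3, the deepest library, was the lowest wild-type library for 7 of the 10 genes. Over all genes tested it did not lie apart on the second principal component, where wild-type replicate 4, at -21.6, was away from the other wild-type libraries (0.210 to 10.1) and Taf8-deleted replicates 1 and 4, at -21.6 and 25.1, lay at opposite ends. The animal numbers of wild-type replicates 1 to 3 are 408.4, 408.5 and 408.6, and no first part of a number occurs in both groups. Any litter or batch that the first part marks cannot be told apart from genotype, and if it marks a litter the wild-type spread may understate that between litters.

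In Taf8-deleted cortex 5 of the 10 genes fell and 0 rose. Those that fell were Ccnd1, Ccnd2, Cdkn2c, Cdkn2d and Cdkn1b, while Ccnd3, both kinase genes and both pocket protein genes did not pass the test. A gene is called here at a Benjamini-Hochberg adjusted p under 0.05 by edgeR's quasi-likelihood test, adjusted over all 15649 genes tested. By that rule 59.2% of all genes were called, 29.6% as lower and 29.5% as higher, so 5 of 10 called is close to the background. The 10 genes had a median log2 fold change of -0.17, against 0.01 for all genes tested. Each of the 5 genes that fell had groups that did not overlap, which was so for 53.6% of all genes. All 10 passed the filter on low counts. In bulk tissue fewer cells of a type and less RNA per cell cannot be told apart. Without wild-type replicate 3, Cdk4 and Rbl1 were called lower as well, so that 7 of 10 fell, and without wild-type replicate 4 or any other 1 library 5 of 10 fell. Over all genes 4405 to 4729 were called lower when 1 library was left out, against 4633 with all libraries. When a change had to exceed 1.2-fold, Ccnd1, Cdkn2c and Cdkn2d were called, 3 of 10 and all of them lower, against 29.6% of all genes (14.9% lower and 14.7% higher).

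**Figure D1:**
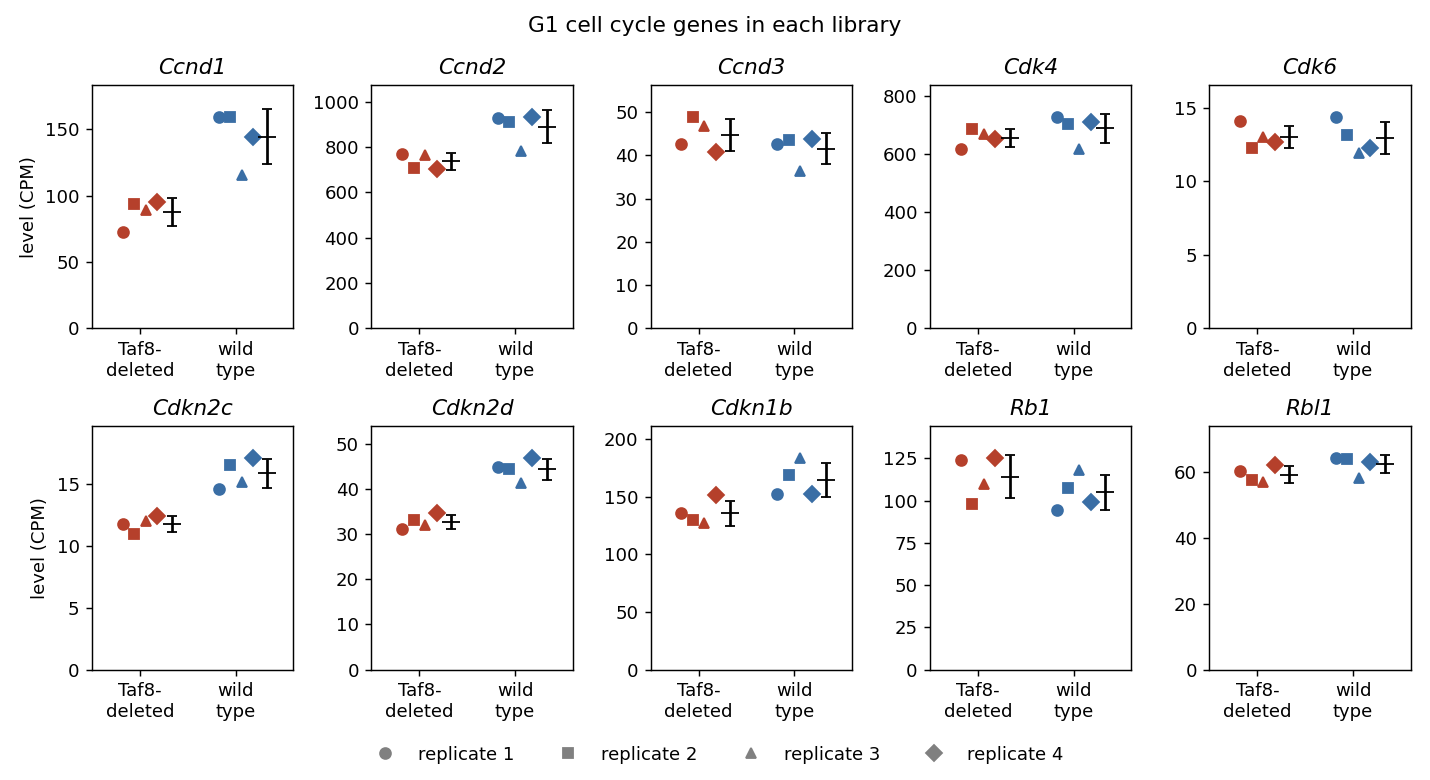
Level of each of the 10 genes in CPM (vertical axes, each from 0) in every library, Taf8-deleted at the left and wild type at the right of each panel, with symbols for replicate numbers and a bar for the mean and SD (n = 4). The Taf8-deleted libraries lie below all wild-type libraries for Ccnd1, Ccnd2, Cdkn2c, Cdkn2d and Cdkn1b, and the groups overlap for the other genes.

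Of the D-type cyclin genes, Ccnd1 and Ccnd2 were called lower, with the larger fall in Ccnd1. Ccnd1 (Entrez gene 12443, chromosome 7, 144929931 to 144939831, minus strand, mm10), a cyclin D gene induced by mitogens, was at 72.3, 93.8, 88.8 and 95.2 CPM in Taf8-deleted replicates 1 to 4, against 159, 159, 115 and 144 CPM in wild-type replicates 1 to 4. Every Taf8-deleted library lay below every wild-type library, and the lowest wild-type value was that of replicate 3. Ccnd1 was 1.65-fold lower, a log2 fold change of -0.72 (SE 0.11, edgeR adjusted p = 0.000275), a size larger than that of 83.9% of all genes tested.

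Ccnd2 (Entrez gene 12444, chromosome 6, 127125162 to 127152188, minus strand), the cyclin D whose RNA is carried into the basal processes of radial glia in the mouse, was at 770.1, 705, 766 and 702 CPM in Taf8-deleted cortex, against 929.6, 912, 784 and 933 CPM in wild-type cortex. The groups did not overlap, but wild-type replicate 3 lay close to the highest deleted library. Ccnd2 was 1.21-fold lower, with a log2 fold change of -0.27 (SE 0.06, edgeR adjusted p = 0.00249), and it was not called by edgeR when the change had to exceed 1.2-fold (adjusted p = 0.433).

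Ccnd3, the remaining D-type cyclin, did not pass the test. Its levels were 42.6, 48.9, 46.8 and 40.8 CPM in Taf8-deleted cortex and 42.6, 43.5, 36.3 and 43.8 CPM in wild-type cortex, and the groups overlapped. The log2 fold change was 0.11 with a 95% interval of -0.06 to 0.27 (edgeR adjusted p = 0.244). Ccnd3 (Entrez gene 12445, chromosome 17, 47505051 to 47599689, plus strand) is the next counted gene to Taf8 (47483364 to 47502321, minus strand). The genes lie head to head with 2730 bases between them. Bysl, which overlaps the far end of Ccnd3, was at 58.5 ± 3.98 CPM in Taf8-deleted cortex and 53.9 ± 5.45 CPM in wild-type cortex (edgeR adjusted p = 0.191).

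Ratios within a library, which do not depend on the scaling, set these cyclins against each other. Taf8-deleted libraries had log2 ratios of Ccnd1 to Ccnd3 counts of 0.76, 0.94, 0.92 and 1.22, against 1.90, 1.87, 1.66 and 1.72 in wild-type libraries. The groups did not overlap, and the mean ratio was 0.564 times that of wild type. For Ccnd1 to Ccnd2 the mean log2 ratio was -3.08 ± 0.24 in Taf8-deleted cortex and -2.63 ± 0.12 in wild-type cortex, a difference of -0.45. For Ccnd3 to Ccnd2 it was -4.04 ± 0.14 in Taf8-deleted cortex and -4.42 ± 0.02 in wild-type cortex, a difference of 0.38. Each of the 3 pairs separated the groups fully, with an exact two-sided permutation p of 0.0286, the smallest that 4 against 4 libraries allow. The pairs are made from the same 3 genes and so are not independent. Single genes separated the groups in 53.6% of all genes, and the share for ratios of other genes was not computed. Adjusted over the 7 pairs compared, p was 0.0667, which misses the threshold.

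Per length of the gene, in CPM per kilobase (RPKM), the D-type cyclins summed to 170.3 ± 5.05 RPKM in Taf8-deleted cortex and 211 ± 18.9 RPKM in wild-type cortex. Ccnd2 held the largest share of this sum, 74.8% ± 2.30 in Taf8-deleted cortex and 73.3% ± 1.11 in wild-type cortex. The share of Ccnd1 was 13.6% ± 1.83 in Taf8-deleted cortex and 18% ± 1.2 in wild-type cortex. That of Ccnd3 was 11.6% ± 0.885 in Taf8-deleted cortex and 8.74% ± 0.161 in wild-type cortex. In Taf8-deleted replicate 1 the share of Ccnd3, at 11%, came close to that of Ccnd1, at 11.1%. In wild-type libraries the share of Ccnd1, 16.7% to 19.1%, was always well above that of Ccnd3.

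**Figure D2:**
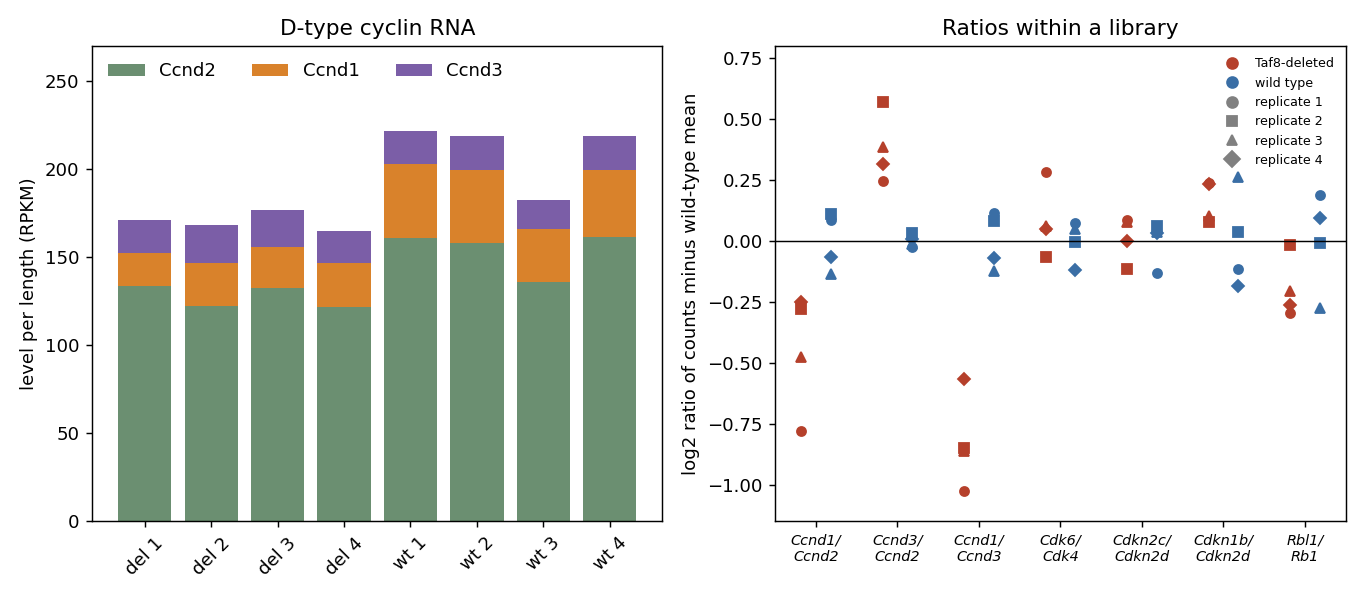
Left, level per length (RPKM) of the D-type cyclin genes stacked for each library, with Taf8-deleted (del) libraries before wild-type (wt) libraries. Right, log2 ratio of counts of gene pairs in each library minus the wild-type mean, where Taf8-deleted libraries stand apart from wild-type libraries for the 3 cyclin pairs and overlap with them for the other 4 pairs.

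The kinase genes did not pass the test in either direction. Cdk4 (Entrez gene 12567, chromosome 10, 127063535 to 127067288, plus strand), the kinase of this pair with far more RNA here, was at 617, 686, 667 and 652 CPM in Taf8-deleted cortex, against 729, 702, 617 and 709 CPM in wild-type cortex. The groups overlapped through wild-type replicate 3, which was as low as the lowest deleted library. The log2 fold change was -0.07 (95% interval -0.19 to 0.05, edgeR adjusted p = 0.279), and without wild-type replicate 3 it was -0.12 and called (edgeR adjusted p = 0.0219). Cdk6 (Entrez gene 12571, chromosome 5, 3341004 to 3531008, plus strand), the other kinase of this class, was at 14.1, 12.3, 13.1 and 12.7 CPM in Taf8-deleted cortex and 14.4, 13.1, 12 and 12.3 CPM in wild-type cortex. Its log2 fold change was 0.01, with a 95% interval of -0.16 to 0.18 (edgeR adjusted p = 0.897), and its sign turned when any 1 of 4 libraries was left out. Per length, Cdk6 made up 1.08% ± 0.110 of the RNA of this pair in Taf8-deleted cortex and 1.01% ± 0.0584 in wild-type cortex.

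The Cdk4 promoter is shown because it held the E-box word more often than the other 8 windows of these genes. The sequence is from RefSeq on GRCm38.p6, the 250 bases before the start at chr10:127063285-127063534, 5′ to 3′ on the plus strand. Capitals mark CACGTG, the E-box word bound by MYC proteins, and the complement of GGGCGG, the word bound by SP proteins.
Cdk4: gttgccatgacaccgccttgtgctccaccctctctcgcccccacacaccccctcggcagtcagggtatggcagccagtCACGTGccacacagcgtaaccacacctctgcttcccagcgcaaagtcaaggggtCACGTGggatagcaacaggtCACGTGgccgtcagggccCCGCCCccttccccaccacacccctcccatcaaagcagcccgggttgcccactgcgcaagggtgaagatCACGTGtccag
The Cdk4 promoter held CACGTG 4 times, starting 172, 118, 98 and 11 bases before the start. The Cdk6 window held CACGTG once, and it also held TATAAA, the TATA box word, 103 bases before the start. Both strands were searched for every word, in windows of 250 bases before to 50 bases after a start. Of 32851 such windows of RefSeq genes, 7.15% held CACGTG, 13.6% held TATAAA and 35.7% held GGGCGG. RefSeq windows were matched for 7 of the 10 genes, 9 windows in all, and 0 matches of different words overlapped in them. Ccnd1, Ccnd2 and Rb1 had no window. A match is a description of the letters only.

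All 3 inhibitor genes fell, the INK4 genes by nearly the same amount. Cdkn2d (Entrez gene 12581, chromosome 9, 21288459 to 21291421, minus strand), an inhibitor of CDK4 and CDK6 that is kept on in neurons, was at 31.1, 33.1, 31.9 and 34.7 CPM in Taf8-deleted cortex, against 44.7, 44.3, 41.3 and 46.8 CPM in wild-type cortex. The groups were well apart and the spread within each was small. It was 1.35-fold lower, a log2 fold change of -0.44 (SE 0.05, edgeR adjusted p = 4.59e-05).

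Cdkn2c (Entrez gene 12580, chromosome 4, 109660876 to 109666756, minus strand), the INK4 gene known for its expression in dividing neural progenitors of the mouse, was at 11.8, 10.9, 12 and 12.4 CPM in Taf8-deleted cortex, against 14.6, 16.6, 15.2 and 17.1 CPM in wild-type cortex. The groups did not overlap. Its log2 fold change was -0.43 (SE 0.07, edgeR adjusted p = 0.000466), a 1.34-fold lower level. The log2 ratio of Cdkn2c to Cdkn2d counts was -1.47 ± 0.09 in Taf8-deleted cortex and -1.48 ± 0.09 in wild-type cortex, a difference of 0.01 (exact two-sided permutation p = 0.80, also after adjustment).

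Cdkn1b (Entrez gene 12576, chromosome 6, 134920401 to 134925525, plus strand), which encodes p27, was at 135, 129, 127 and 151 CPM in Taf8-deleted cortex, against 153, 168, 183 and 152 CPM in wild-type cortex. The groups were nearly in contact, between deleted replicate 4 and wild-type replicate 4. Its log2 fold change was -0.27 (SE 0.07, edgeR adjusted p = 0.00798), a 1.21-fold lower level. Wild-type replicate 3 was the highest library for this gene, whereas it was the lowest wild-type library for the D-type cyclins and Cdk4. The call of Cdkn1b was lost when the level of meningeal markers was a covariate (log2 fold change -0.12, edgeR adjusted p = 0.155). That level, as mean log2 CPM, was 3.06, 3.64, 3.79 and 1.78 in Taf8-deleted replicates 1 to 4, against 1.47 to 2.50 in wild-type cortex. It thus goes partly with genotype, and the fit cannot fully separate the 2.

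Promoters of Cdkn2c and Cdkn1b are shown as examples from the inhibitor genes, which fell together. They lie at chr4:109666757-109667006 on the minus strand and chr6:134920151-134920400 on the plus strand of GRCm38.p6, from RefSeq, and capitals mark GGGCGG.
Cdkn2c: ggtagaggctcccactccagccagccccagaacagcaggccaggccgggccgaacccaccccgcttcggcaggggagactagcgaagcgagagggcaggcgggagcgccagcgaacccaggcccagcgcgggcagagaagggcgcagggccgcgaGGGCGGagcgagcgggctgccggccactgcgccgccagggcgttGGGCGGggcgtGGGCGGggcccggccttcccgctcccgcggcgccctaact
Cdkn1b: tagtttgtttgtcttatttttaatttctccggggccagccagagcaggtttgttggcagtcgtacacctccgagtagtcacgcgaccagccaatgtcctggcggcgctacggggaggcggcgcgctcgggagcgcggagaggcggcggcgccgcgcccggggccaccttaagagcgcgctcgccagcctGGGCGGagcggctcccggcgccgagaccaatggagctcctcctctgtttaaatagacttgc
These windows and that of Cdkn2d held GGGCGG, and 0 of them held TATAAA. Another window of Cdkn2c, with its start at base 109665372, held CACGTG 34 bases after the start and neither GGGCGG nor TATAAA. The SP word was also found in both windows of Ccnd3 and in those of Cdk4 and Rbl1, genes that did not pass the test, so that 7 of the 9 windows had it.

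The pocket protein genes did not pass the test. Rb1 (Entrez gene 19645, chromosome 14, 73192858 to 73325951, minus strand), which encodes the retinoblastoma protein, was at 124, 97.9, 109.9 and 125 CPM in Taf8-deleted cortex, against 94.5, 108, 118 and 99.2 CPM in wild-type cortex. The groups overlapped widely, and the log2 fold change was 0.12 (95% interval -0.07 to 0.32, edgeR adjusted p = 0.253). With the level of meningeal markers as a covariate it was 0.29 and was called (edgeR adjusted p = 0.0225). Rbl1 (Entrez gene 19650, chromosome 2, 157145893 to 157204534, minus strand), which encodes p107 and is itself an E2F target, was at 60.3, 57.8, 56.9 and 62.3 CPM in Taf8-deleted cortex and 64.3, 64.0, 58.3 and 63.2 CPM in wild-type cortex. It had the smallest spread of the 10 genes within Taf8-deleted and within wild-type cortex, with coefficients of variation of 4.11% and 4.53%. Its log2 fold change was -0.07 (95% interval -0.18 to 0.03, edgeR adjusted p = 0.206), and it was called without wild-type replicate 3 (-0.11, edgeR adjusted p = 0.043). The ratio of Rbl1 to Rb1 counts was on average 0.873 times that of wild type, with groups that overlapped (exact two-sided permutation p = 0.171, adjusted p = 0.24).

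The Rbl1 promoter, at chr2:157204535-157204784 on the minus strand of GRCm38.p6 (RefSeq), is shown because it alone among the 9 windows held a full E2F word. Capitals mark that word, TTTCGCGC, and the complement of GGGCGG.
Rbl1: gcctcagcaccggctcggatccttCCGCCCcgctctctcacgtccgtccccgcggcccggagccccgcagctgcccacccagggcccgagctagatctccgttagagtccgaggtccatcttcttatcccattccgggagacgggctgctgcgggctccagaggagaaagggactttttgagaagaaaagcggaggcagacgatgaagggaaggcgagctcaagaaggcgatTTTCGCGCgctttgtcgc
The E2F word begins 18 bases before the start. The words searched were TTTGGCGC, then TTTCCCGC, then TTTCGCGC, then TTTGCCGC, and 2.26% of all RefSeq windows held at least 1 of them.

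**Figure D3:**
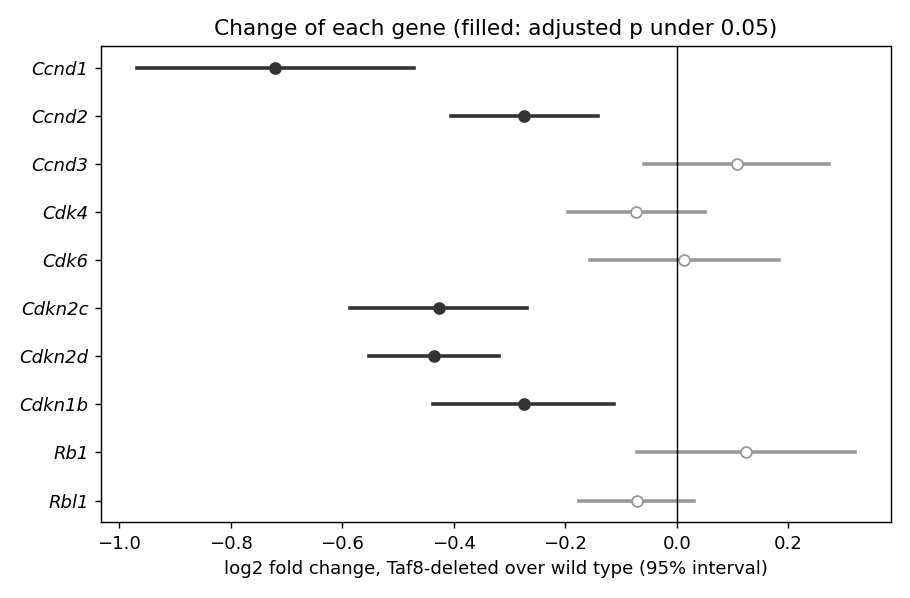
Log2 fold change of each of the 10 genes in Taf8-deleted over wild-type cortex (horizontal axis) with its 95% interval, filled and dark where the adjusted p was under 0.05. Ccnd1 has the lowest value, -0.72, the inhibitor genes lie between -0.44 and -0.27, and the intervals of Ccnd3, Cdk4, Cdk6, Rb1 and Rbl1 include 0.

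By level per length, the order of the 10 genes was largely shared between the groups. Cdk4 came first, at 487 ± 21.9 RPKM in Taf8-deleted cortex and 512 ± 36.8 RPKM in wild-type cortex. Ccnd2 was next, at 127 ± 6.46 RPKM in Taf8-deleted cortex and 154 ± 12.3 RPKM in wild-type cortex, and Cdkn1b followed, at 56.4 ± 4.49 RPKM in Taf8-deleted cortex and 68.2 ± 6.20 RPKM in wild-type cortex. Cdk6 was last in both groups, at 5.27 ± 0.311 RPKM in Taf8-deleted cortex and 5.24 ± 0.442 RPKM in wild-type cortex. The middle of the order differed. Cdkn2d (25.7 ± 1.23 RPKM), Rb1 (24.7 ± 2.80 RPKM), Ccnd1 (23.1 ± 2.77 RPKM) and Ccnd3 (19.8 ± 1.66 RPKM) followed each other with overlapping ranges in Taf8-deleted cortex. In wild-type cortex Ccnd1 (38.0 ± 5.45 RPKM) and Cdkn2d (34.9 ± 1.78 RPKM) overlapped and lay above Rb1 (22.7 ± 2.25 RPKM) and Ccnd3 (18.4 ± 1.56 RPKM). Rbl1 (11 ± 0.450 RPKM) and Cdkn2c (10.7 ± 0.568 RPKM) overlapped in Taf8-deleted cortex. In wild-type cortex Cdkn2c (14.4 ± 1.06 RPKM) lay above Rbl1 (11.5 ± 0.522 RPKM) in every library.

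In contrast to the 3 inhibitor genes above, Cdkn1c and Cdkn1a were higher. Of 5 listed, 3 could be tested, and Cdkn1c and Cdkn1a rose while Cdkn3 did not pass, beside 29.5% higher over all genes. The median log2 fold change of these 3, 0.42, is the value of Cdkn1a itself. Cdkn1c, which encodes the Cip/Kip protein p57, was at 339, 387, 379.9 and 339 CPM in Taf8-deleted cortex, against 154, 166, 127 and 146 CPM in wild-type cortex. The groups were far apart, and the rise was 2.44-fold (log2 fold change 1.29, SE 0.08, edgeR adjusted p = 5.27e-07). Cdkn1a, which encodes p21, a Cip/Kip protein induced by p53, was at 14.6 ± 1.18 CPM in Taf8-deleted cortex and 10.9 ± 0.452 CPM in wild-type cortex (edgeR adjusted p = 0.000546). The 3 Cip/Kip genes differed in direction, with Cdkn1b lower and Cdkn1a and Cdkn1c higher. The other INK4 genes, Cdkn2a and Cdkn2b, had 0 to 7 counts per library and were not tested.

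Genes that act after the D-type cyclins are given by their counts, beside 29.6% lower and 29.5% higher over all genes, and the lists themselves were not tested. Of 8 genes in a list of cyclin E, cyclin A and CDK2 genes that also holds Cdk1, Cdk3 and Cdc25a, 4 fell, 1 rose and 3 did not pass (median log2 fold change -0.21). Those that fell were Ccne1, Cdc25a, Cdk1 and Cdk3, while Cdk2 itself, Ccne2 and Ccna2 did not pass. The groups overlapped for Cdk1. Cdk3 had a low level, at 0.790 ± 0.0981 CPM in Taf8-deleted cortex and 1.95 ± 0.279 CPM in wild-type cortex. Cdc25a, the phosphatase that activates CDK2, was at 46.9 ± 1.87 CPM in Taf8-deleted cortex and 68.8 ± 4.79 CPM in wild-type cortex (edgeR adjusted p = 1.32e-05). Ccne1, the cyclin that partners CDK2 at the end of G1, was at 14.2 ± 0.910 CPM in Taf8-deleted cortex and 18 ± 1.61 CPM in wild-type cortex (edgeR adjusted p = 0.00318). Ccna1, a cyclin A best known from the germ line, rose 2.13-fold from a low level, at 3.50 ± 0.377 CPM in Taf8-deleted cortex and 1.65 ± 0.284 CPM in wild-type cortex.

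Among 17 genes of the E2F, DP and DREAM group, 5 fell, 1 rose and 11 did not pass (median log2 fold change -0.10), so that the share lower was near that of all genes. Without wild-type replicate 3, 8 of the 17 fell (counts without single libraries were added after the data were seen). Over all genes, leaving out 1 library gave 4405 to 4729 called lower, against 4633 with all libraries. E2f1, an activating E2F, was at 27.3 ± 1.63 CPM in Taf8-deleted cortex and 43.0 ± 5.01 CPM in wild-type cortex, and Tfdp2, a dimer partner of E2F proteins, was at 62.5 ± 3.24 CPM in Taf8-deleted cortex and 92.7 ± 1.55 CPM in wild-type cortex (edgeR adjusted p = 7.33e-05 and 1.87e-06). Rbl2, the other pocket protein gene, did not pass, at 42.2 ± 1.16 CPM in Taf8-deleted cortex and 46.3 ± 4.15 CPM in wild-type cortex (edgeR adjusted p = 0.0792). E2F target genes of the G1 to S transition fell in 10 of 20 and rose in 2 (median log2 fold change -0.20). When each library was left out in turn, 8 to 14 fell, with 14 without wild-type replicate 3, and 1 to 2 rose. Their summed level was 1982 to 2167 CPM in Taf8-deleted cortex, against 2417 to 2579 CPM in wild-type replicates 1, 2 and 4 and 2053 CPM in wild-type replicate 3, which lay among the deleted libraries. The same library lay among them for the list of cyclin E, cyclin A and CDK2 genes with Cdk1, Cdk3 and Cdc25a. That list summed to 433 to 451 CPM in Taf8-deleted cortex, against 443 CPM in wild-type replicate 3 and 485 to 505 CPM in the other wild-type libraries. The thymidine kinase gene Tk1 was at 20.7 ± 1.19 CPM in Taf8-deleted cortex and 32.1 ± 3.39 CPM in wild-type cortex, and Pola1, the catalytic subunit of the polymerase that primes replication, was at 42.6 ± 1.08 CPM in Taf8-deleted cortex and 58.0 ± 3.90 CPM in wild-type cortex. The median of all genes tested was 0.01.

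Genes for the turnover of cyclin D and p27 rose in 8 of 16, fell in 3 and did not pass in 5 (median log2 fold change 0.12), against 29.5% higher and 29.6% lower over all genes. Without Taf8-deleted replicate 1, Taf8-deleted replicate 4 or wild-type replicate 4, 5 of the 16 rose. Over all genes, leaving out 1 library gave 3999 to 4721 called higher, against 4624 with all libraries. Rbx1, the RING subunit of cullin ligases, was at 48.8 ± 3.94 CPM in Taf8-deleted cortex and 116 ± 1.54 CPM in wild-type cortex, a 2.38-fold lower level (edgeR adjusted p = 5.87e-08). Cul1, the scaffold of the SCF ligases, was 1.35-fold lower, while Skp1, the SCF adaptor, was 1.28-fold higher and Ddb1, the adaptor of CUL4 ligases, was 1.2-fold higher. The kinase that activates CDKs has 3 subunits, which are also part of the general transcription factor TFIIH. Its cyclin Ccnh rose 1.22-fold and its assembly factor Mnat1 rose 1.33-fold, while Cdk7 was at 55.0 ± 2.31 CPM in Taf8-deleted cortex and 53.5 ± 2.66 CPM in wild-type cortex and did not pass (median of the list 0.29). Of 11 FOXO, MYC and BMI1 regulators of these genes, 6 fell, 1 rose and 4 did not pass (median -0.17), against the same shares over all genes. Foxo4, a FOXO factor, a class known to activate Cdkn1b, was 1.37-fold lower, and Myc rose to 35.3 ± 1.96 CPM in Taf8-deleted cortex, against 27 ± 2.15 CPM in wild-type cortex (edgeR adjusted p = 0.000447).

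**Figure D4:**
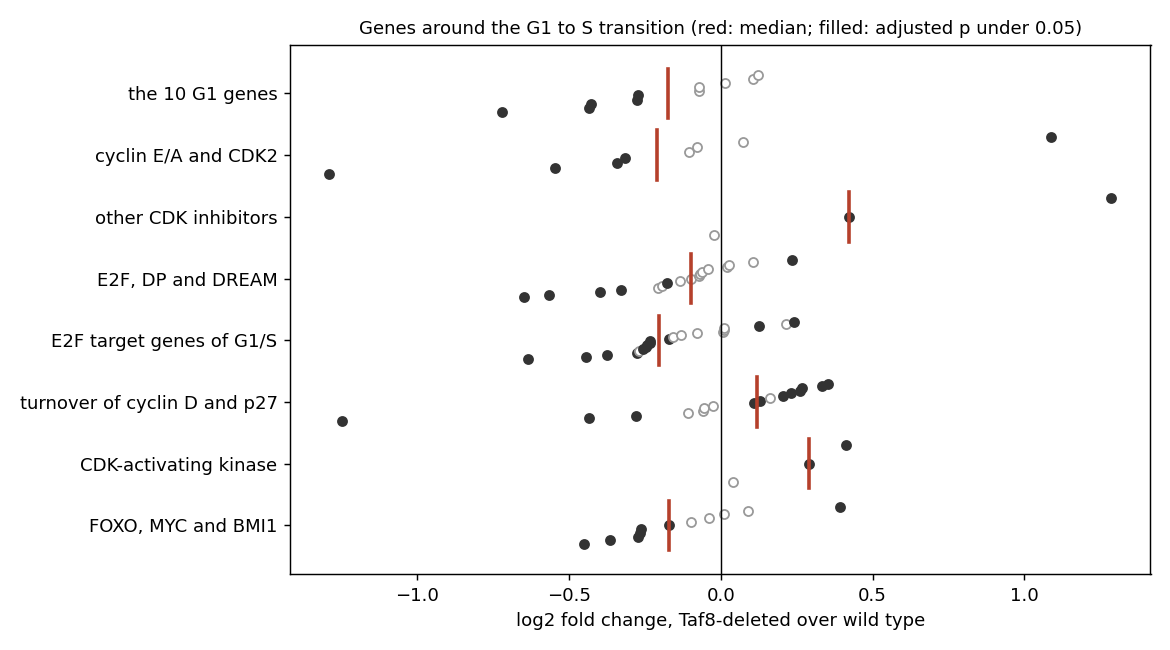
Log2 fold change in Taf8-deleted over wild-type cortex (horizontal axis) of the 10 G1 genes and of each tested gene in 7 lists of related genes, with red lines for the list medians and filled points where the adjusted p was under 0.05. Cdkn1c, at 1.29, lies farthest to the right, while the 10 G1 genes have a median of -0.17.

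Markers of cell types differed between the groups too, in counts to be read beside 29.6% lower and 29.5% higher over all genes. The marker lists themselves were not tested. Markers of postmitotic cortical neurons were lower in 11 of 12 and higher in 0, with summed levels of 5058 to 5716 CPM in Taf8-deleted cortex and 6928 to 8247 CPM in wild-type cortex. Of 8 markers of interneurons and the ganglionic eminences, 6 were lower and 1 was higher, with 758 to 771 CPM in Taf8-deleted cortex and 938 to 1082 CPM in wild-type cortex. Of 12 radial glia markers, 6 were higher and 3 lower. Intermediate progenitor markers were split, 4 of 9 higher and 4 lower, with 1447 to 1582 CPM in Taf8-deleted cortex and 1363 to 1512 CPM in wild-type cortex. Wild-type replicate 3 had the highest neuron level and the lowest radial glia level of the wild-type libraries. It was the highest wild-type library for Cdkn1b and Rb1 and the lowest for 7 of the 10 genes, the D-type cyclin genes and Cdkn2d among them. A link between these levels was not tested.

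Markers of non-neural cells were often higher, against 29.5% higher over all genes. Their counts moved with single libraries and, in edgeR, with the meningeal level as a covariate. Calls over all genes moved as well. With all libraries and no covariate 4624 genes were higher, against 3761 with the covariate and 3999 to 4721 with 1 library left out. All 12 markers of endothelial cells and pericytes were higher (8 without Taf8-deleted replicate 3 and 6 with the covariate), with summed levels of 278 to 351 CPM in Taf8-deleted cortex and 229.5 to 242 CPM in wild-type cortex. Meningeal fibroblast markers were higher in 8 of 12 tested (4 without Taf8-deleted replicate 3 and 3 with the covariate), with 445 to 578 CPM in Taf8-deleted cortex and 306 to 416 CPM in wild-type cortex. The covariate is the mean log2 CPM of these same markers, so their own drop with it was fixed in advance. Of 9 microglia markers, 5 were higher and 1 lower, with 50.3 to 64.4 CPM in Taf8-deleted cortex and 45.2 to 52.1 CPM in wild-type cortex. Of 6 markers of red blood cells, 5 were higher (3 without Taf8-deleted replicate 1 or wild-type replicate 2, 2 without Taf8-deleted replicate 2 and 0 with the covariate), with 339.9 to 464 CPM in Taf8-deleted cortex and 255 to 329 CPM in wild-type cortex. Choroid plexus markers were higher in 1 of 6 (6 without wild-type replicate 4, 2 without Taf8-deleted replicate 4 and 0 with the covariate) and ranged from 14 to 1232 CPM in Taf8-deleted cortex and from 15.4 to 413 CPM in wild-type cortex. No marker was at 0 in all libraries. The part of any of these cell types in the changes of the 10 genes was not tested, beyond the fit with the meningeal level as a covariate. In that edgeR fit the log2 fold change was -0.74 for Ccnd1, -0.35 for Ccnd2, -0.41 for Cdkn2c and -0.43 for Cdkn2d, all called.

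**Figure D5:**
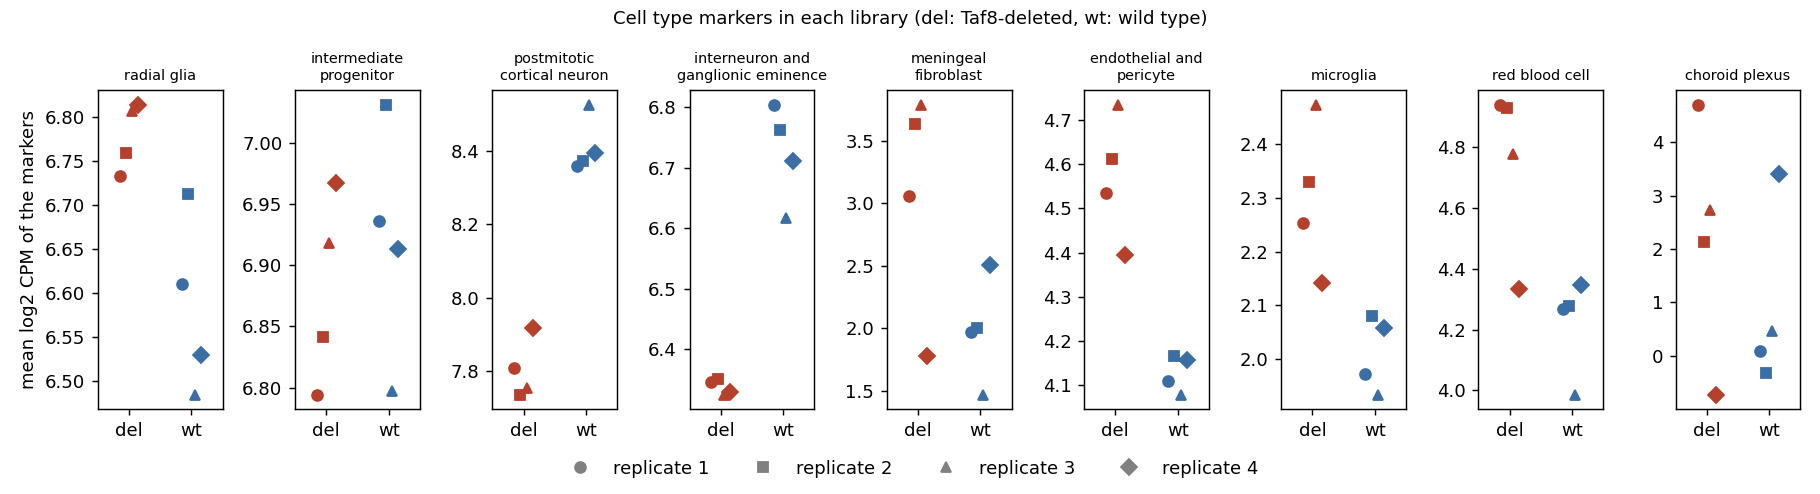
Mean log2 CPM of the markers of each cell type (vertical axes, each with its own range) in every library, Taf8-deleted (del) at the left and wild type (wt) at the right. The neuron level of each Taf8-deleted library lies below all wild-type libraries, and the endothelial and pericyte level lies above them.

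Some of the 10 genes share their span with another counted gene, and the sources used here do not give the strand setting of the counting, so reads of such partners cannot be told apart with certainty. Ccnd1 overlaps LTO1, at 34.0 ± 0.475 CPM in Taf8-deleted cortex and 31.6 ± 0.879 CPM in wild-type cortex. Cdk4 overlaps Tspan31, at 76.9 ± 2.02 CPM in Taf8-deleted cortex and 79.7 ± 1.81 CPM in wild-type cortex, and Rb1 holds Lpar6, at 12.1 ± 2.34 CPM in Taf8-deleted cortex and 12.1 ± 1.53 CPM in wild-type cortex. Ccnd2 overlaps a noncoding gene at under 1 CPM, and Ccnd3 overlaps the end of Bysl.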

How the data were processed

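The 8 libraries hold RNA of mouse embryonic cortex and were grouped by the genotype in the labels, with 4 Taf8-deleted and 4 wild-type libraries. Per the labels' protocols, an RNeasy kit was used for extraction and a stranded mRNA kit for the libraries. The authors deposited whole read counts for each Entrez gene. Subread 1.5.0, featureCounts and mm10 are named in the submitters' processing notes. The sources used here give neither the annotation nor the handling of multi-mapping reads nor the strand setting. Between the matrix and the tables of single samples 0 values differed. Symbols and coordinates came from a RefSeq table of GRCm38.p6 (the mm10 sequence), which named 25275 genes, and from GENCODE for 18, and strands came from GENCODE.

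The groups were tested with edgeR 4.0.16 (R 4.3.3), using TMM scaling, the filterByExpr filter and the quasi-likelihood test with a term for genotype. The Benjamini-Hochberg adjustment ran over 15649 genes, with 0.05 as the threshold. The SE of a log2 fold change was obtained from its F statistic, and intervals use the test's degrees of freedom. CPM values use TMM-scaled library sizes, and RPKM values divide them by the length in the deposited table. A floor of 3 counts is 0.0458 to 0.114 CPM, for counting error only. Pairs of libraries of a group differed by more than sampling noise (chi-square 3.70 to 28.4 per degree of freedom), so none was counted as a repeat. The highest values, 23.2 to 28.4, were those of the pairs with wild-type replicate 3. Ratios of 7 gene pairs within a library were compared with an exact permutation test over 70 splits.

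The members and the lists were chosen with earlier results of these data known. The naming rule takes Taf8, the 10 members and up to 4 tested genes of each list by smallest adjusted p. Ccna2, Ccne2, Cdk1, Cdk2, Cdk7, Cdkn2a, Cdkn2b and Rbl2, and the genes that neighbour or overlap a member, were named after their values were seen. An item that the rule takes is not reported here. Alternatives were other scalings and filters, DESeq2 1.42.0, limma voom 3.58.1, a replicate block, a meningeal covariate, a 1.2-fold null and each library left out in turn. The steps were tested on simulated counts.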

Additional observations from a re-analysis of the deposited data

Results flagged for a closer look

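These results are single libraries far from the other 3 of their group. They are 14 of 158 groups of 4 looked at, where chance gives about 1 in 20.

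Among the 10 genes, wild-type replicate 3 was low for Ccnd2, at 784 CPM against 912 to 933 CPM in the other wild-type libraries. The same library was low for Ccnd3, at 36.3 CPM against 42.6 to 43.8 CPM. Wild-type replicate 1 had a log2 ratio of Cdkn2c to Cdkn2d counts of -1.61, against -1.45 to -1.42 in the others. Wild-type replicate 3 was also low for the ligase adaptor gene Ddb1 (655 CPM against 704 to 708 CPM), Foxo6 (109 CPM against 119 to 120.5 CPM) and the progenitor marker Hes6 (125 CPM against 150.3 to 155 CPM).

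Taf8-deleted replicate 1 was high for the choroid plexus markers Otx2 (22.0 CPM against 12 to 13.4 CPM in the other deleted libraries) and Clic6 (54.0 CPM against 0.755 to 8.08 CPM). Wild-type replicate 4 was high for Folr1 (3.94 CPM against 0.332 to 0.449 CPM) and Clic6 (20.2 CPM against 1.30 to 1.80 CPM), further choroid plexus markers.

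Taf8-deleted replicate 4 was high for the neuron marker Syn1 (63.1 CPM against 60.1 to 60.4 CPM). It was low for the meningeal marker Fn1 (208 CPM against 234 to 239 CPM) and the globin gene Hba-a1 (53.0 CPM against 72.5 to 76.2 CPM). Taf8-deleted replicate 2 was high for the meningeal marker Crabp2 (19.8 CPM against 16.2 to 16.6 CPM).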

How the results depend on the processing

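Under 18 alternatives for each of the 10 genes (180 values), 169 kept their direction and their side of the threshold. The log2 fold change ranged from -0.82 to -0.65 for Ccnd1, from -0.47 to -0.39 for Cdkn2c and from -0.48 to -0.39 for Cdkn2d, and all of these were called. Tested against a change of 1.2-fold, 2307 genes were higher and 2328 lower, and 3 of the 10 genes were lower, without Ccnd2 and Cdkn1b. With the meningeal level as a covariate 3761 genes were higher and 3758 lower. Of the 10 genes 1 was then higher (Rb1) and 4 were lower, Cdkn1b lost its call and Ccnd3 turned to -0.044. In the same fit the choroid plexus genes Folr1 and Clic6 turned to -0.29 and -0.36. Leaving out 1 library gave 5 to 7 lower genes among the 10, with 7 only without wild-type replicate 3. The log2 fold change of Cdk6 turned to -0.037 to -0.00110 without deleted replicate 1 or 3 or wild-type replicate 3 or 4, over a range of -0.037 to 0.055 when each library was left out. The difference of the log2 Cdkn2c to Cdkn2d ratio ranged from -0.032 to 0.054 and was below 0 without deleted replicate 1 or 3 or wild-type replicate 1. Leaving out 1 library gave -0.045 to 3.14 for Folr1 and -0.24 to 3.49 for Clic6, the low values without deleted replicate 1 and the high ones, which were called, without wild-type replicate 4. Cdkn3 turned to 0.00690 with upper-quartile scaling and to 0.0196 with library size alone. The causes were not tested. The median of all genes moved between -0.01 and 0.05 over all settings.

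With the replicate block, 4115 genes were higher and 4170 lower, and 5 of the 10 genes were lower, with 0 higher. The same number in the labels did not go with shared deviations from the group means (correlations -0.28, 0.01, -0.07 and -0.46 for numbers 1 to 4). So few correlations cannot exclude a pairing by number. Depth limits the genes with few counts, Cdkn2a and Cdkn2b, and not the 10 genes, which had at least 322 counts in every library. With 4 libraries a group and 7 pairs, a ratio needed at least 5 pairs at the smallest p to pass, so missing the threshold says little of stability.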
